A study of Homo sapiens with 6 samples.

Results

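The levels of 10 genes of the mTOR pathway were followed in RNA sequencing libraries of the monocytic leukaemia cell line THP-1 after transfection with a synthetic microRNA. They were DDIT4, the sestrins SESN1, SESN2 and SESN3, the complex subunits MTOR, RPTOR and RICTOR, the tumour suppressors TSC1 and TSC2, and EIF4EBP1, a translation repressor reported as a target of miR-125a. The genes were chosen by name for their roles, 10 of the 26347 gene identifiers counted, and all 10 passed the filter on low counts. They were chosen with the differences between these libraries, that of DDIT4 among them, already known, so those differences are described below and are not used as evidence. Both groups, of 3 libraries each, were THP-1 cells grown in RPMI with fetal bovine serum, transfected and harvested 24 h later as total RNA. One group received a negative control microRNA mimic and the other a miR-125a-5p mimic. The study's title speaks of macrophages, whereas the sample labels name no differentiation step. The libraries are not said to come from separate cultures, so the spread between them may be technical.

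mTOR is a kinase that couples nutrients and growth factors to protein synthesis. It works in complex 1, which is defined by RPTOR and drives translation and growth, and in complex 2, which is defined by RICTOR and acts on AKT. The TSC1-TSC2 complex holds complex 1 in check by turning off the small GTPase RHEB, DDIT4 (also called REDD1) relieves TSC2 of its inhibition during hypoxia and other stress, and sestrins restrain complex 1 by binding GATOR2, which SESN1 and SESN2 are known to do when leucine is scarce. EIF4EBP1 binds the cap-binding protein EIF4E and blocks translation until mTOR phosphorylates it. In monocytes and macrophages this pathway is known for its part in metabolism and in cytokine production. Most of this control acts on proteins, which messenger RNA counts do not measure.

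The mimic's sequence and the matches to it are shown because they say which members carry the letters that the microRNA could pair with. The mature microRNA, as listed by RefSeq on GRCh38.p14, is printed with its seed, bases 2 to 8, in capitals.
hsa-miR-125a-5p: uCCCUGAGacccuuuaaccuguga
The searched sites were the 8mer CTCAGGGA, the 7mer-m8 CTCAGGG, the 7mer-A1 TCAGGGA and the 6mer TCAGGG, all of which share the 6mer, and each gene was counted under its best site in its longest 3′ untranslated region (3′ UTR) of GENCODE 29. Only the transcript's own strand was searched. None of the 10 members held an 8mer, which 6.0% of the 12796 searched genes that passed the filter held. A site of 7 bases was the best match in 4 of 10, DDIT4, SESN2, RPTOR and EIF4EBP1, and 24.3% of all searched genes had a site of 7 or 8 bases. Another 4, SESN1, SESN3, RICTOR and TSC1, held the 6mer alone (12.98% of all searched genes), and MTOR and TSC2 held none in the 3′ UTR. That 6mer was in 2 of 2 annotated 3′ UTRs of SESN1, 1 of 3 of SESN3, 1 of 2 of RICTOR and 4 of 12 of TSC1. A match is a description of letters and not evidence of binding.

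The 7-base sites of DDIT4, SESN2 and RPTOR are printed 5′ to 3′ as the plus-strand transcript reads, with the site in capitals. Those of EIF4EBP1 are given by position only. The printed letters show the surroundings of each match and say nothing about levels.
DDIT4: ggggtgggtgTCAGGGAtcacttggga
SESN2: tcttgcaagaTCAGGGAccccatttct
RPTOR 7mer-A1: gtctggaatgTCAGGGAaggggagggc
RPTOR 7mer-m8: acacctggccCTCAGGGggctgagctg
The DDIT4 site lies at chr10:72275761-72275767 (GRCh38), in exon 3 of 3, from base 573 of a 3′ UTR of 848 bases. The SESN2 site lies at chr1:28281946-28281952, in exon 10 of 10, from base 1144 of 1689. RPTOR carried its sites at chr17:80964518-80964524 and chr17:80965749-80965755, both in exon 34 of 34, from bases 188 and 1420 of 2038. Of the 3 annotated 3′ UTRs of RPTOR, 1 held the 7mer-m8. EIF4EBP1 had 2 copies of the 7mer-m8, from bases 39 and 143 of a 3′ UTR of 430 bases. Coding sequences of MTOR, RPTOR and TSC2 held a 7mer-A1 and that of TSC1 a 7mer-m8. The counts were made on hg19, and these GRCh38 positions serve only to place the sequences.

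The libraries held 8256149 to 10257791 counts. In a principal component analysis control library 1 stood apart on the first axis, at -38.2 where the other 5 lay between 1.14 and 16.3, and miR-125a-5p library 3 on the second, at 31.1 where the others lay between -21.5 and 5.24. CPM are counts scaled to a common library size after edgeR's composition correction. All 10 listed monocyte genes were counted, at a summed 2463 to 2600 CPM in control and 2402 to 2498 CPM in miR-125a-5p libraries without that scaling. The T cell list summed to at most 0.831 CPM, with CD3E at 0 in every library, and the epithelial and fibroblast lists to at most 1.07 and 3.68 CPM, with KRT18 and KRT19 at 0. The B cell list reached 53.2 to 85.8 CPM in control and 44.1 to 62.1 CPM in miR-125a-5p libraries, nearly all of it the transcription factor PAX5, while MS4A1 and CD79A had at most 2 counts and 1 count in a library. Its part in the differences below was not tested.

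None of the 10 members passed edgeR's quasi-likelihood test at an adjusted p of 0.05 over 14731 genes, where 0.0272% of all genes passed. DESeq2 and limma voom called none of them either. At an unadjusted p under 0.05 there was 1 lower, DDIT4, and 1 higher, SESN3, beside 3.22% of all genes lower, 2.69% higher and 5.92% in either direction. The control and miR-125a-5p libraries did not overlap for 3 of 10 members, SESN3 on the higher side and DDIT4 and RPTOR on the lower, beside 5.31% of all genes higher, 5.90% lower and 11.2% in either direction. Since the members were chosen with this comparison known, nothing is read from these counts. Fold changes below are log2 values of the miR-125a-5p level over the control level, and their 95% intervals are not adjusted for the number of genes.

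**Figure D1:**
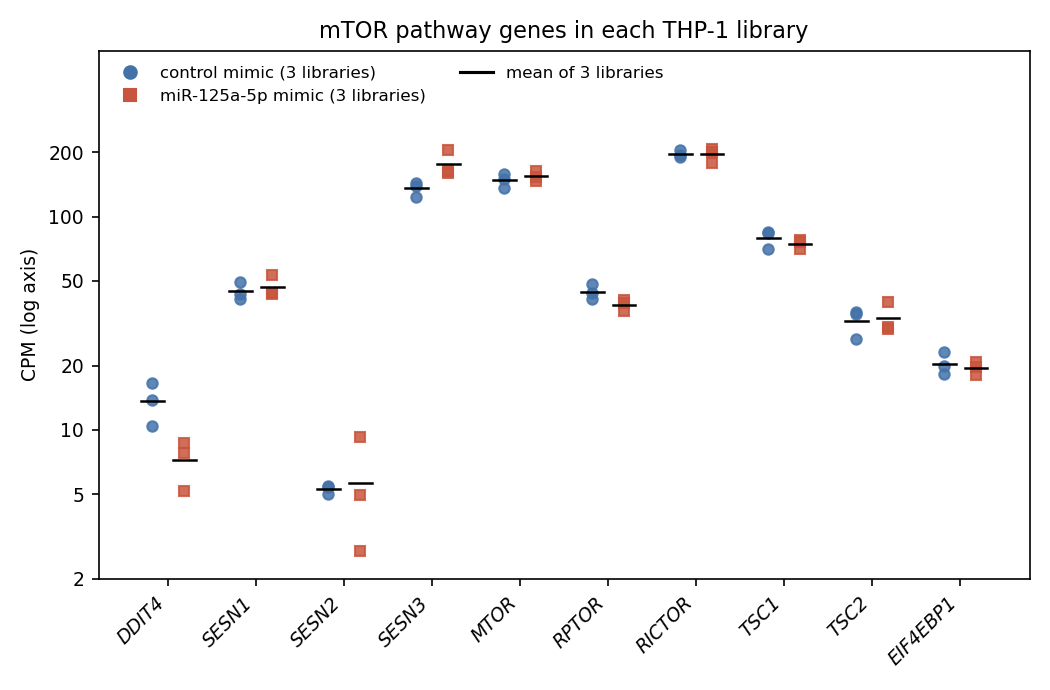
CPM (log axis) of the 10 members in each of 3 control (circles) and 3 miR-125a-5p (squares) libraries, with the mean of each group as a bar. DDIT4 lies between 10.4 and 16.7 CPM in control and between 5.15 and 8.69 CPM in miR-125a-5p libraries, and SESN2 spreads most among the miR-125a-5p libraries.

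DDIT4, the stress-induced inhibitor of complex 1, stood at 16.7, 10.4 and 13.8 CPM in control libraries 1, 2 and 3 and at 8.69, 7.83 and 5.15 CPM in miR-125a-5p libraries 1, 2 and 3. Each miR-125a-5p library lay below each control library. The mean was 13.6 ± 3.13 CPM (SD, n = 3) in control and 7.22 ± 1.85 CPM (SD, n = 3) after the mimic. The log2 difference fitted by edgeR was -0.92 (SE 0.24, 95% interval -1.41 to -0.43), which is a change of -47.1%. The edgeR adjusted p was 0.373. In bulk RNA a lower level in each cell and fewer cells with the transcript cannot be told apart.

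The highest DDIT4 level was that of control library 1 and the lowest that of miR-125a-5p library 3, the libraries that stood apart on the first and the second component. Without control library 1 the log2 difference was -0.75, and over the removal of any 1 library it ran from -1.08 to -0.73. With both of those libraries left out, an alternative chosen after the data were seen, it was -0.56 (edgeR adjusted p = 0.597). The counts behind these levels were 170, 88 and 125 in control and 74, 72 and 43 in miR-125a-5p libraries. Exact Poisson 95% intervals, which cover counting error only, were 70.6 to 108 for the lowest control count and 58.1 to 92.9 for the highest miR-125a-5p count, so the closest libraries of the groups overlap within counting error. DDIT4 also varied among control libraries, with a coefficient of variation of 23.0%, against a median of 15.02% for the 501 genes nearest in control level, itself included. When no filter on low counts was used, DDIT4 passed (edgeR adjusted p = 0.0320, log2 difference -0.92) and it passed in that 1 of 15 fits, with adjusted p up to 0.741 in the others.

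Its paralogue DDIT4L, which also inhibits mTOR signalling, was measured beside it. DDIT4L had 121, 97.2 and 71.2 CPM in control and 115, 86.3 and 79.8 CPM in miR-125a-5p libraries, a log2 difference of -0.04 (SE 0.15, 95% interval -0.35 to 0.26). The ranges of the groups overlapped nearly in full. Scaled by exon length, DDIT4L stood at 37.1 ± 9.59 CPM per kb in control libraries (SD, n = 3) and DDIT4 at 7.80 ± 1.79 CPM per kb, so the paralogue held the higher level in these cells.

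The sestrins are stress-induced proteins with 3 paralogues in these cells. SESN3, known as a target of FOXO factors, had 139.9, 124 and 143 CPM in control and 163, 161 and 206 CPM in miR-125a-5p libraries. All miR-125a-5p libraries lay above all control libraries, with a log2 difference of 0.38 (SE 0.11, 95% interval 0.16 to 0.60, edgeR adjusted p = 0.411). The highest value was in miR-125a-5p library 3, without which the log2 difference was 0.25, and it was 0.27 with control library 1 left out as well. SESN1, known as a p53 target, had 49.6, 43.2 and 41.2 CPM in control and 53.1, 43.7 and 43.6 CPM in miR-125a-5p libraries, with overlapping groups and a log2 difference of 0.07 (SE 0.13, 95% interval -0.20 to 0.33). That of SESN1 was -0.04 without miR-125a-5p library 1 and 0.15 without control library 1.

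SESN2, the sestrin induced by ATF4 during amino acid and endoplasmic reticulum stress, had 5.004, 5.45 and 5.41 CPM in control and 4.93, 2.72 and 9.22 CPM in miR-125a-5p libraries. The control libraries lay close together, while miR-125a-5p library 2 was the lowest of all 6 and library 3 the highest. The counts in miR-125a-5p libraries 2 and 3 were 25 (exact Poisson 95% interval 16.2 to 36.9) and 77 (60.8 to 96.2), so they differed by more than counting error. The log2 difference of 0.08 had a 95% interval of -0.63 to 0.79, the widest of the members. It was -0.47 without miR-125a-5p library 3 and 0.42 without library 2, and lay below 0 with the replicate block (-0.03) and with limma voom (-0.10). Coefficients of variation were 4.65% in control and 58.8% after the mimic.

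Per kb of exon, SESN3 held 49.1% to 53.8% of the summed level of the 3 sestrins in control libraries and 51.7% to 59.4% in miR-125a-5p libraries. SESN2 held 5.23% to 6.41% in control and 2.86% to 7.90% in miR-125a-5p libraries. SESN3 and SESN1 thus made up most of the sestrin messenger RNA in all 6 libraries. The summed level was 24.6 to 27.7 CPM per kb in control and 27.6 to 33.8 CPM per kb after the mimic, so the groups met at their edges.

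MTOR, the kinase of both complexes, had 136, 151 and 158 CPM in control and 163, 154 and 148 CPM in miR-125a-5p libraries, a log2 difference of 0.07 (SE 0.10, 95% interval -0.13 to 0.26). RICTOR, the scaffold of complex 2, had 206, 190.3 and 196 CPM in control and 202, 208 and 178 CPM in miR-125a-5p libraries, a log2 difference of -0.01 (SE 0.09, 95% interval -0.20 to 0.18). Both genes had groups that overlapped, and without control library 1 the log2 differences of MTOR and RICTOR were 0.0023 and 0.02. That of RICTOR was 0.05 without miR-125a-5p library 3.

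RPTOR, the scaffold of complex 1 and the carrier of a 7mer-A1 and a 7mer-m8 site, had 41.2, 43.7 and 48.2 CPM in control and 40.5, 39.5 and 35.9 CPM in miR-125a-5p libraries. The groups did not overlap, but control library 1 and miR-125a-5p library 1 were less than 1 CPM apart. The log2 difference was -0.20 (SE 0.12, 95% interval -0.45 to 0.06, edgeR adjusted p = 0.884), and it lay between -0.25 and -0.13 with any 1 library left out.

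The brakes upstream of RHEB showed overlapping groups. TSC1, which stabilises the complex, had 70.8, 84.1 and 84.5 CPM in control and 75.9, 70.4 and 78.1 CPM in miR-125a-5p libraries (log2 difference -0.09, SE 0.11). TSC2, the GTPase-activating subunit, had 26.8, 34.9 and 35.6 CPM in control and 29.6, 30.5 and 39.8 CPM in miR-125a-5p libraries (log2 difference 0.04, SE 0.15). Control library 1 was the lowest control library for both genes. Without it the log2 difference of TSC1 was -0.18 and that of TSC2 -0.09, on the other side of 0. RHEB, the GTPase they act on, stood at 159, 118 and 145 CPM in control and 152, 149 and 142 CPM in miR-125a-5p libraries, a log2 difference of 0.07 (SE 0.11).

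EIF4EBP1, the reported target with 2 sites of 7 bases, had 18.3, 23.1 and 19.99 CPM in control and 18.1, 19.8 and 20.7 CPM in miR-125a-5p libraries. The groups overlapped, with means of 20.5 ± 2.41 CPM (SD, n = 3) and 19.5 ± 1.33 CPM (SD, n = 3). The log2 difference was -0.07 (SE 0.16, 95% interval -0.40 to 0.27), at 154 to 195 counts per library. It was 0.03 without control library 2 and -0.14 without control library 1. Protein was not measured. EIF4EBP2, its paralogue with no match in the 3′ UTR, had 206, 204 and 206 CPM in control and 165, 170.4 and 192 CPM in miR-125a-5p libraries, a log2 difference of -0.22 (SE 0.09, edgeR adjusted p = 0.773) with groups that did not overlap. EIF4EBP3 stood at 14.1 ± 2.01 and 12.997 ± 1.48 CPM (SD, n = 3 each, log2 difference -0.11). Its value is uncertain, since a readthrough transcript, ANKHD1-EIF4EBP3, shares its sequence and was counted apart at 3193 to 4104 counts per library.

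**Figure D2:**
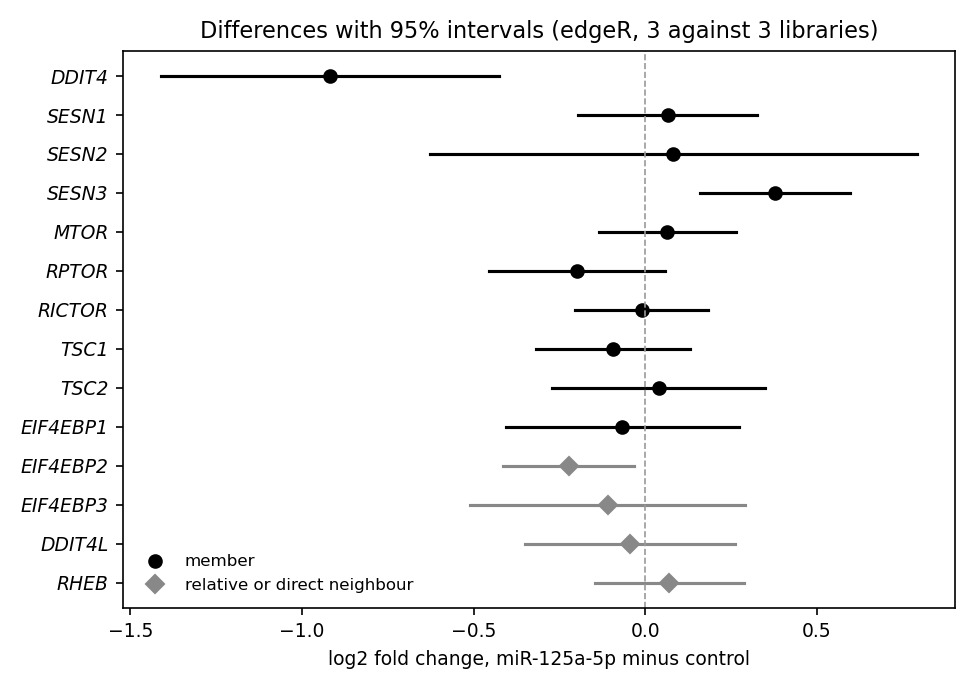
Log2 fold change (miR-125a-5p minus control) with its 95% interval from edgeR for the 10 members (circles) and 4 relatives or direct neighbours (diamonds). DDIT4 at -0.92 and SESN3 at 0.38 are the members whose unadjusted intervals lie on 1 side of 0, and SESN2 has the widest interval.

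The order of levels in control libraries does not rest on the comparison of mimics. Levels were set per kb of the exons of GENCODE 29 coding transcripts, and the order was the same when the longest transcript was used as the length. RICTOR (20.5 ± 0.847 CPM per kb, SD, n = 3) and EIF4EBP1 (20.1 ± 2.36) were the highest members. They lay at percentiles 77.9 and 77.4 of the genes that passed the filter on low counts and had a length. They were followed by MTOR (15.7 ± 1.19), SESN3 (13.3 ± 1.02), SESN1 (11.3 ± 1.10), TSC1 (7.82 ± 0.760), DDIT4 (7.80 ± 1.79), RPTOR (6.16 ± 0.489), TSC2 (4.57 ± 0.690) and SESN2 (1.53 ± 0.0712). SESN2 lay at percentile 17.2 of the same filtered genes.

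Of the 9 pairs of neighbours in that order, 4 had overlapping control ranges. These were RICTOR with EIF4EBP1, SESN3 with SESN1, TSC1 with DDIT4, and DDIT4 with RPTOR. MTOR lay below EIF4EBP1, TSC1 below SESN1, TSC2 below RPTOR and SESN2 below TSC2 in each control library, with ranges apart, as did SESN3 below MTOR. RHEB, at 58.1 ± 8.55 CPM per kb, exceeded every member, and the scaffold of complex 1, RPTOR, stood at less than that of complex 2, RICTOR, in each library. Exons of genes on the opposite strand overlap those of DDIT4, SESN1, SESN3, MTOR, RPTOR, RICTOR, TSC1 and TSC2 in GENCODE 29, and the strand setting of the counts is not given in the sources used here.

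**Figure D3:**
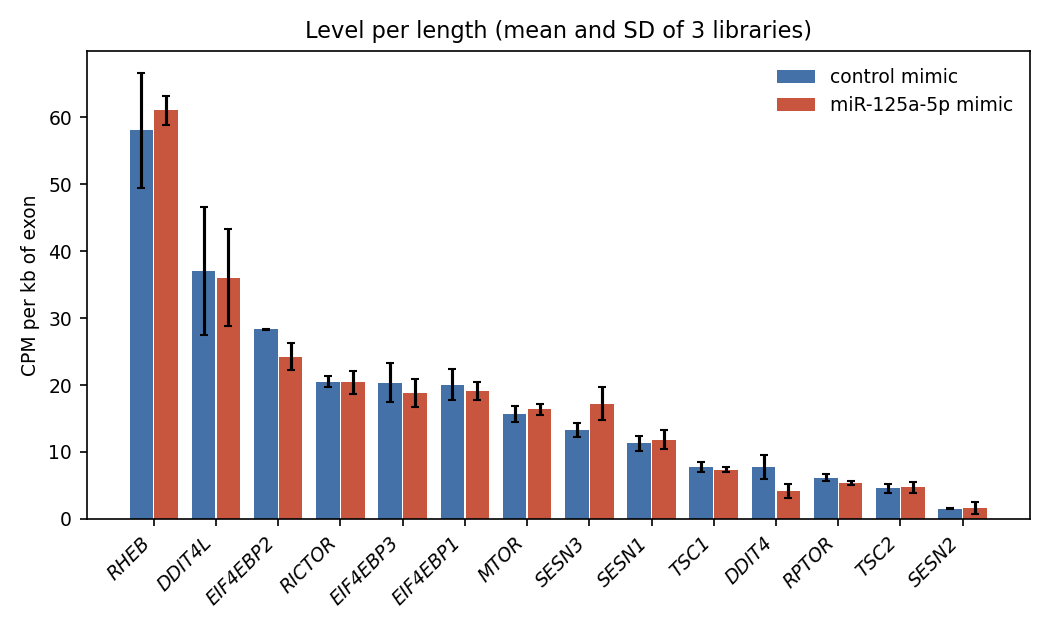
CPM per kb of exon (bars start at 0; mean with SD of 3 libraries) for the 10 members and 4 relatives, ordered by the control level, with control and miR-125a-5p groups side by side. RHEB at 58.1 and DDIT4L at 37.1 in control stand above every member, and SESN2 at 1.53 is the lowest.

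Other genes of the pathway were taken from 11 lists. The first 6 cover mTOR itself, from its subunits to its effectors, and held 80 genes besides the members, of which 77 passed the filter. No call was made among the 77 by edgeR, beside 0.0272% of all genes, and DESeq2 and limma voom called none. At an unadjusted p under 0.05 edgeR had 2 higher and 1 lower, beside 2.69% and 3.22% of all genes. Positive log2 differences were seen in 45 and negative ones in 32, with a median of 0.029, against 0.0011 over all 14731 genes.

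Among mTOR complex subunits, 12 of 12 listed genes were tested, with 4 positive and 8 negative differences and a median of -0.072, which was 0.011 without control library 1. TTI1, part of the complex that helps assemble mTOR, had 49.3 ± 0.853 CPM in control and 44.9 ± 2.31 CPM after the mimic (SD, n = 3 each, log2 difference -0.13). Its partner TELO2 had a log2 difference of 0.28 (SE 0.26), and MAPKAP1, a subunit of complex 2, -0.10 (SE 0.10). In the list of the TSC complex and RHEB, 4 of 5 genes were tested, 2 positive and 2 negative, and TBC1D7, the third TSC subunit, stood at 3.13 ± 0.521 and 3.12 ± 0.934 CPM. RHEBL1 was too low to test, at 30 counts in all libraries together.

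The list of GATOR, KICSTOR and leucine sensing, which holds the sestrins, had 17 of 18 genes tested, 14 with a positive and 3 with a negative difference. Its median was 0.082, and 0.083 without the sestrins. The median level of the 14 non-member genes, as log2 CPM minus each gene's mean, was -0.119, -0.046 and 0.021 in control libraries and 0.051, 0.037 and 0.058 in miR-125a-5p libraries. Control library 1 was the lowest and the groups did not overlap, whereas they overlapped in every other list on this measure. This was 1 list of 11. Of all single genes 11.2% did not overlap in either direction, so nothing is read from this separation. No gene of the list passed. SAMTOR, the sensor of S-adenosylmethionine, had 22.8, 20.5 and 21.8 CPM in control and 30.5, 33.7 and 22.2 CPM in miR-125a-5p libraries (log2 difference 0.41, SE 0.16, edgeR adjusted p = 0.731). SEH1L, shared by GATOR2 and the nuclear pore, had 80.0 ± 1.36 and 89.3 ± 2.87 CPM (SD, n = 3 each), and the KICSTOR subunit KPTN had 3.74 ± 0.845 and 5.30 ± 0.414 CPM (SD, n = 3 each). Their groups did not overlap, with the miR-125a-5p side higher, and neither passed (edgeR adjusted p = 0.884 each). In the whole list 3 genes, SESN3 among them, did not overlap on the higher side and 0 on the lower. Over all genes these shares were 5.31% and 5.90%.

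Rag GTPases, Ragulator and folliculin, which bring complex 1 to the lysosome, had 13 of 13 genes tested, 9 positive and 4 negative, with differences from -0.07 to 0.18 and a median of 0.029. RRAGD, RRAGB and the Ragulator subunit LAMTOR3 had the smallest p, at log2 differences of 0.12, 0.18 and 0.15. Upstream kinases and brakes had 19 of 20 genes tested, 11 positive and 8 negative, with a median of 0.036. PRKAB2, a subunit of the energy sensor AMPK, had 84.1, 59.8 and 63.1 CPM in control and 92.6, 87.8 and 80.1 CPM in miR-125a-5p libraries. Its groups overlapped through control library 1, with a log2 difference of 0.33 (SE 0.12, edgeR adjusted p = 0.670). With control library 1 and miR-125a-5p library 3 left out it passed (log2 difference 0.55, edgeR adjusted p = 0.0244). AKT1, the kinase that inactivates the TSC complex, had a log2 difference of -0.25 (SE 0.13) and the lipid phosphatase INPP5D -0.11 (SE 0.09), both with groups that did not overlap. In this list 0 genes did not overlap on the higher side and 3, DDIT4 among them, on the lower, beside 5.31% and 5.90% of all genes.

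Translation and growth effectors had 22 of 22 genes tested, 10 positive and 12 negative, with a median of -0.035. Beside EIF4EBP2, the smallest p belonged to SGK1, a kinase downstream of complex 2, at 57.8 ± 10.2 and 48.1 ± 5.72 CPM (SD, n = 3 each), and to MAF1, a repressor of RNA polymerase III, at 32.1 ± 4.92 and 26.6 ± 8.27 CPM (SD, n = 3 each). Both had a log2 difference of -0.27 and neither passed (edgeR adjusted p = 0.843 and 0.884). Across these 77 genes an 8mer was found in 2, LARP1 and AKT1S1, whose log2 differences were 0.04 (SE 0.08) and -0.14 (SE 0.24). A site of 7 or 8 bases was found in 18.2% of the 77, against 24.3% of all searched genes.

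**Figure D4:**
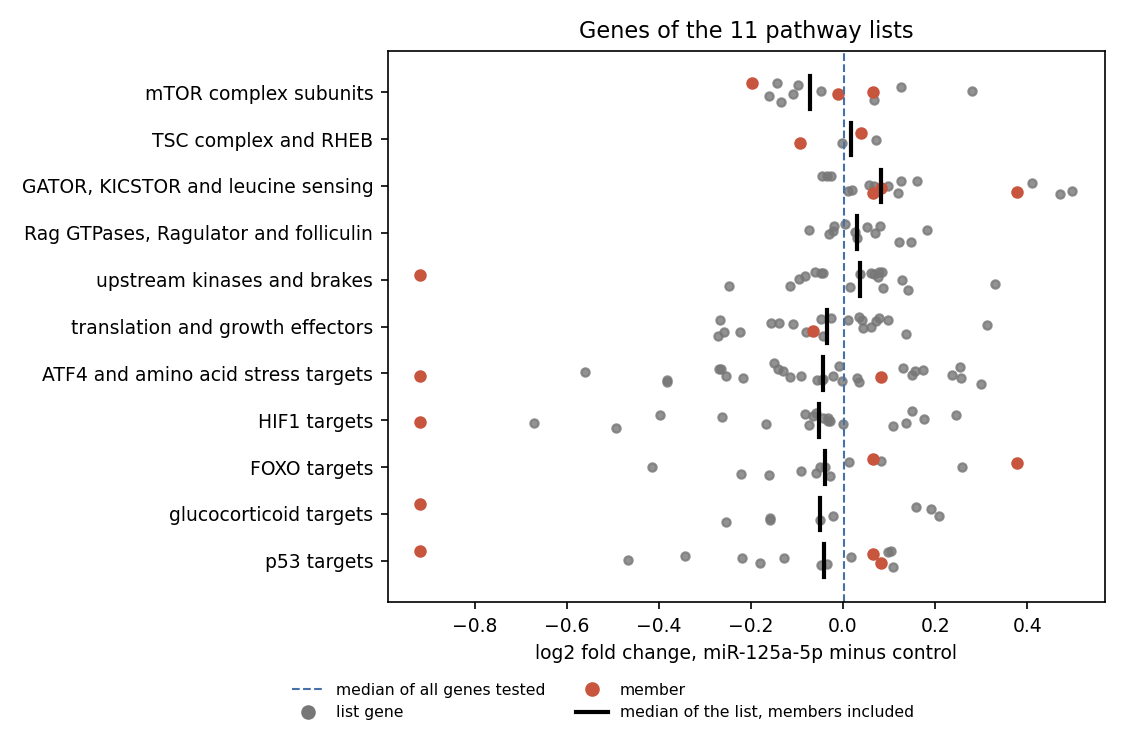
Log2 fold change (miR-125a-5p minus control) of each tested gene (points, members coloured) in the 11 lists, with the list median (black bar) and the median of all genes tested (dashed line at 0.0011). List medians lie between -0.072 and 0.082, and DDIT4 at -0.92 is the lowest point in each list that holds it.

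The other 5 lists hold genes driven by the signals known to induce DDIT4 or the sestrins, and DDIT4 belongs to 4 of them. No gene of these lists passed the edgeR test, nor did any with DESeq2 or limma voom. Over all 11 lists, members included, edgeR gave 5 genes higher and 7 lower at an unadjusted p under 0.05 out of 164 tested, beside 2.69% and 3.22% of all genes. The higher count was 1 without control library 2 and 10 with control library 1 and miR-125a-5p library 3 left out. Medians of these 5 lists ran from -0.051 to -0.040.

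ATF4 and amino acid stress targets had 30 of 30 genes tested, 11 positive and 19 negative, with a median of -0.044. ATF5, a stress transcription factor, had 111, 76.8 and 60.2 CPM in control and 56.7, 62.4 and 49.0 CPM in miR-125a-5p libraries, so that control library 1 was far above the rest and the groups overlapped. Its log2 difference was -0.56 (SE 0.15, edgeR adjusted p = 0.393), and -0.29 without control library 1. It passed with no filter (edgeR adjusted p = 0.00235) and without control library 3 (edgeR adjusted p = 0.0274). WARS1, a tryptophan tRNA synthetase, had a log2 difference of -0.27 (SE 0.10), and ALDH1L2, a mitochondrial folate enzyme, -0.27 (SE 0.11). An 8mer was in 4 of 7 annotated 3′ UTRs of WARS1. The p53 targets RRM2B and AEN also held an 8mer, with log2 differences of 0.10 (SE 0.17) and -0.04 (SE 0.17). The median level of the 28 non-member genes was 0.091, 0.039 and -0.021 in control and 0.021, -0.013 and -0.060 in miR-125a-5p libraries, with overlapping groups.

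HIF1 targets had 20 of 21 genes tested, 5 positive and 15 negative, with a median of -0.051 that was 0.037 with control library 1 and miR-125a-5p library 3 left out. ALDOC, a glycolytic aldolase, stood at 21.6 ± 2.34 and 16.3 ± 0.384 CPM (SD, n = 3 each), and VEGFA, the angiogenic growth factor, at 30.6 ± 0.720 and 25.5 ± 1.51 CPM (SD, n = 3 each). LDHA, lactate dehydrogenase, stood at 1537 ± 87.9 and 1735 ± 74.9 CPM (SD, n = 3 each), on the other side. These 3 were named for having the smallest p among the list's non-members. None of the 3 overlapped between groups and none passed, with edgeR adjusted p of 0.773, 0.859 and 0.833. In the whole list 4 genes did not overlap on the higher side and 3, DDIT4 among them, on the lower. Over all genes these shares were 5.31% and 5.90%.

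FOXO targets, which include SESN1 and SESN3, had 13 of 14 genes tested, 5 positive and 8 negative, with a median of -0.040. The cell-cycle inhibitor CDKN1B had a log2 difference of 0.26 (SE 0.15), the insulin receptor INSR -0.16 (SE 0.10) and the ubiquitin ligase subunit FBXO32 -0.22 (SE 0.19). Glucocorticoid targets had 9 of 11 tested, 3 positive and 6 negative, with a median of -0.050 that was 0.0056 without control library 1. FKBP5, a co-chaperone of the receptor, had a log2 difference of -0.16 (SE 0.10), KLF9 -0.25 (SE 0.18) and TSC22D3 (also called GILZ) 0.21 (SE 0.21). THP-1 cells are known to lack functional p53. Of the list of p53 targets 14 of 15 were tested, 6 positive and 8 negative, with a median of -0.042. The death receptor TNFRSF10B had a log2 difference of -0.34 (SE 0.17), the repair factor XPC -0.22 (SE 0.13) and the cell-cycle inhibitor CDKN1A -0.13 (SE 0.13), and control library 1 had the highest level of TNFRSF10B and CDKN1A.

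The pattern of DDIT4 over the 6 libraries was compared with that of 11596 other genes of at least 5 CPM by Pearson's r of log2 CPM. The highest r belonged to LACTB (0.998), a mitochondrial protease-like protein, followed by SCLT1 (0.996), PHKG1 (0.992), VPS54 (0.990) and SLC25A20 (0.987). Spearman's rho was 1 for the first 4 and 0.943 for SLC25A20. LACTB stood at 39.4 ± 6.34 and 24.4 ± 5.11 CPM (SD, n = 3 each) and, as DDIT4, was highest in control library 1 and lowest in miR-125a-5p library 3. The lowest r were those of H2BC15 (-0.993), DPY19L1 (-0.988), EXOC3 (-0.981), LOC606724 (-0.981) and SHKBP1 (-0.978). An r above 0.9 was reached by 101 genes and one below -0.9 by 110. Such values are a description of 6 libraries that share treatment and depth.

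With the values centred within each group, r to DDIT4 was 0.958 to 0.992 for the 5 genes most alike and -0.997 to -0.939 for the 5 most opposed. Without miR-125a-5p library 3 and control library 1, the farthest from the median of DDIT4, it was 0.978 to 0.999 and -0.999 to -0.911. These 10 genes were picked by r over the same libraries, so nothing is read from these values. Over the 6 libraries r was 0.76 for RPTOR, 0.56 for RICTOR, 0.13 for SESN1, 0.03 for TSC1, -0.24 for EIF4EBP1, -0.28 for SESN2, -0.30 for MTOR, -0.57 for TSC2 and -0.80 for SESN3. With the values centred within each group r was 0.91 for RICTOR, 0.65 for SESN1, 0.34 for RPTOR, 0.05 for MTOR, -0.36 for SESN3, -0.62 for SESN2, -0.66 for TSC1, -0.89 for TSC2 and -0.90 for EIF4EBP1. Without the 2 farthest libraries it was 0.998 for RPTOR, as high as for the genes most alike, and -0.71 for RICTOR, so the order of the members depends on the libraries used.

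**Figure D5:**
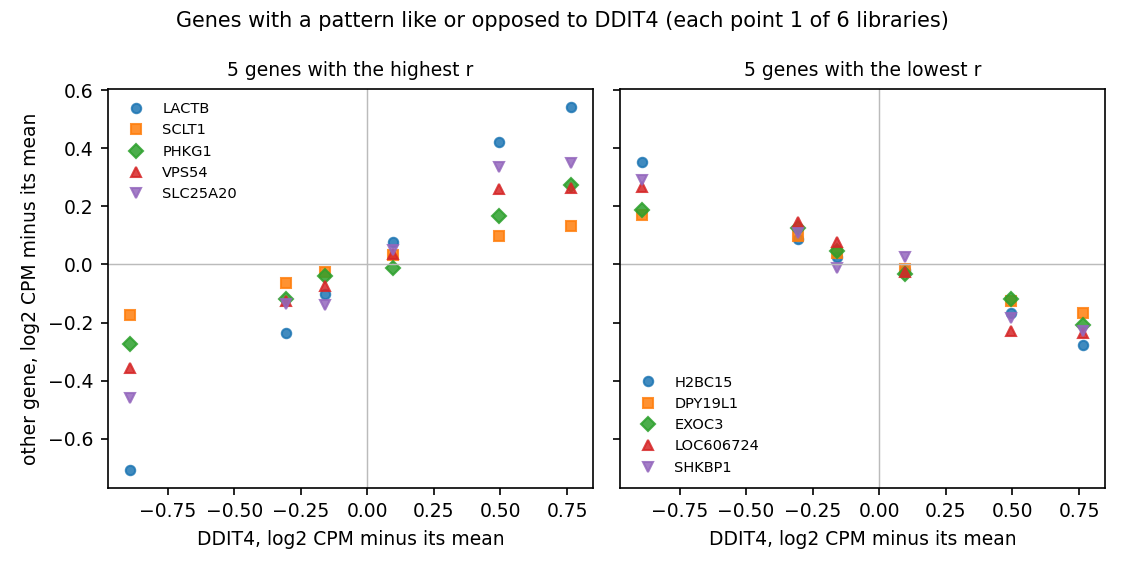
Log2 CPM minus the gene's mean for the 5 genes with the highest (left) and the lowest (right) Pearson's r to DDIT4 (y axis), against the same value of DDIT4 (x axis), with 1 point per library. DDIT4 ranges from -0.89 in miR-125a-5p library 3 to 0.76 in control library 1, and LACTB follows it with the widest range of the left panel.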

How the data were processed

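The authors deposited whole-number counts of each gene in 6 libraries as a single table, not normalized. The submitters' processing notes name TopHat, bcl2fastq, edgeR and the build hg19. For the counting tool, annotation and strand setting, nothing is given in the sources used here. Identifiers were named through RefSeq on GRCh38.p14 (26204 of 26347, 99.5%), and 0 columns belonged to no library. Counts were fitted with edgeR 4.0.16 in R 4.3.3 (filterByExpr, 14731 genes, trimmed mean of M-values, glmQLFit and glmQLFTest, Benjamini-Hochberg). The SE is the log2 fold change divided by the square root of F. Log2 CPM used a prior count of 2. The steps were tested on simulated counts. No pair of libraries agreed within sampling noise (chi-square per gene of at least 4.00), so all 6 were counted. Same-numbered libraries of the groups correlated at 0.056, 0.014 and -0.016 in their deviations, so replicate numbers were not taken as pairs. The members and lists were chosen with earlier results of these data known. The text names the members, called genes of a list or its 3 non-members with the smallest p, 4 relatives, and the 5 genes most like and 5 most opposed to DDIT4. LARP1, AKT1S1, RRM2B and AEN were named after their sites were seen. Alternatives were other scaling factors, filters, DESeq2 1.42.0, limma 3.58.1 voom, a replicate block and libraries left out. One further list of marker genes is not reported here.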

Additional observations from a re-analysis of the deposited data

How the results depend on the processing

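Over all genes, edgeR gave 0 higher and 4 lower. Without the count filter there were 11 higher and 41 lower, of which 2 lower were in the 11 lists (DDIT4 and ATF5). DESeq2 gave 2 higher and 11 lower. With the replicate block there were 0 higher and 9 lower, none of them in the lists. Pairing by number was not shown, since not every library correlated best with its own number. With 3 libraries per group these correlations cannot exclude it, and the labels do not name pairs. With any 1 library left out there were 0 to 2 higher and 3 to 14 lower, and 0 to 1 lower in the lists. With control library 1 and miR-125a-5p library 3 both left out there were 19 higher and 14 lower, and 1 higher in the lists (PRKAB2). The cause was not tested. The log2 difference of DDIT4 was -1.08 to -0.56 over 14 alternatives. Of the 10 members, 5 (DDIT4, SESN3, MTOR, RPTOR and TSC1) kept their sign in all 14, as did 5 of 11 list medians taken without members. Of 294 recomputed values 24 had the other sign. DDIT4 and SESN2 had the lowest counts of the members, 43 to 170 and 25 to 77 per library.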
